A study of Rattus norvegicus with 12 samples.

Results

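The genes described here mark pericentral hepatocytes, the liver cells next to the central vein, or depend on Wnt signalling in hepatocytes: Glul, Oat, Cyp2e1, Slc1a2, Rgn, Axin2, Lgr5, Tbx3, Rhbg and Lect2. They were taken by symbol from the array annotation, with every probe set that carries 1 gene symbol. The rule itself uses no measured value, but the list was drawn up with earlier results of these data known. Of the 10 genes, 9 were measured, by 16 of the 20826 probe sets with 1 gene symbol, or 9 of 14217 named genes. Rhbg, an ammonia transporter, has no probe set under its symbol in the annotation used and is given no value. Liver RNA came from male Wistar rats, 5 weeks old, whose AIN93G diet held 20% maple syrup (7 rats fed, 6 arrays) or 20% of a sugar mix syrup of like sugar composition (8 rats fed, 6 arrays). All rats had first eaten the plain diet for 4 days, ate the test diets for 11 days, and were fasted for 16 hours before the liver was taken. Each of the 12 Affymetrix arrays is labelled as a biological replicate, so the spread below is that between animals.

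In the liver lobule, blood flows from the portal tract to the central vein, and hepatocytes differ along that path. Wnt ligands and R-spondins released near the central vein stabilise beta-catenin in nearby hepatocytes, which turns on glutamine synthesis, uptake of glutamate and xenobiotic oxidation. Hepatocytes near the portal tract carry out gluconeogenesis, urea synthesis and serine breakdown, for which Pck1, Asl and Sds stand here. In RNA from whole liver, fewer cells of a zone and less RNA per cell cannot be told apart.

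The deposited values resemble log2 intensities in level, from 5.56513 to 15.2071, but they differ between animals by far less than log2 intensities do. The standard deviation (SD) of a member probe set over the 12 livers lay between 1e-06 and 0.0026, with 7.14e-06 as the median of all 31099 probe sets. No fold change is therefore given. Values of an animal are printed as its distance from the mean of the 12 livers in units of that probe set's SD, and diet differences as Hedges' g, the maple syrup mean minus the sugar mix mean in units of the SD between animals, with a 95% interval. The SD of the array medians, 3.51e-05, was wider than the SD of 9 of the 16 member probe sets. As a check of the labelled tissue, the 9 measured of 10 hepatocyte markers had mean levels from 11.0 to 15.2, among them Alb at 15.2 and Hnf4a at 12.3. The number of arrays limits the precision.

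The diets did not separate any of the 9 measured genes. With limma, a linear model with variances moderated across probe sets, and Benjamini-Hochberg adjustment, 0 of the 16 member probe sets passed an adjusted p of 0.05, where the share called among all 20826 probe sets was 0%. At an unadjusted p of 0.05, 0 of 16 were counted, against 4.19% of all probe sets, a share that would amount to less than 1 of the 16. In no member did the 6 maple syrup livers lie wholly above the 6 sugar mix livers (0.0384% of all probe sets) or wholly below them (0.0528%). Of the 16 probe sets, 8 had a g above 0 and 8 below, with a median of 0.01, beside -0.02 over all probe sets. All 16 intervals of g included 0, and the interval reaches beyond 1 SD for each, so differences of that size are not excluded.

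**Figure D1:**
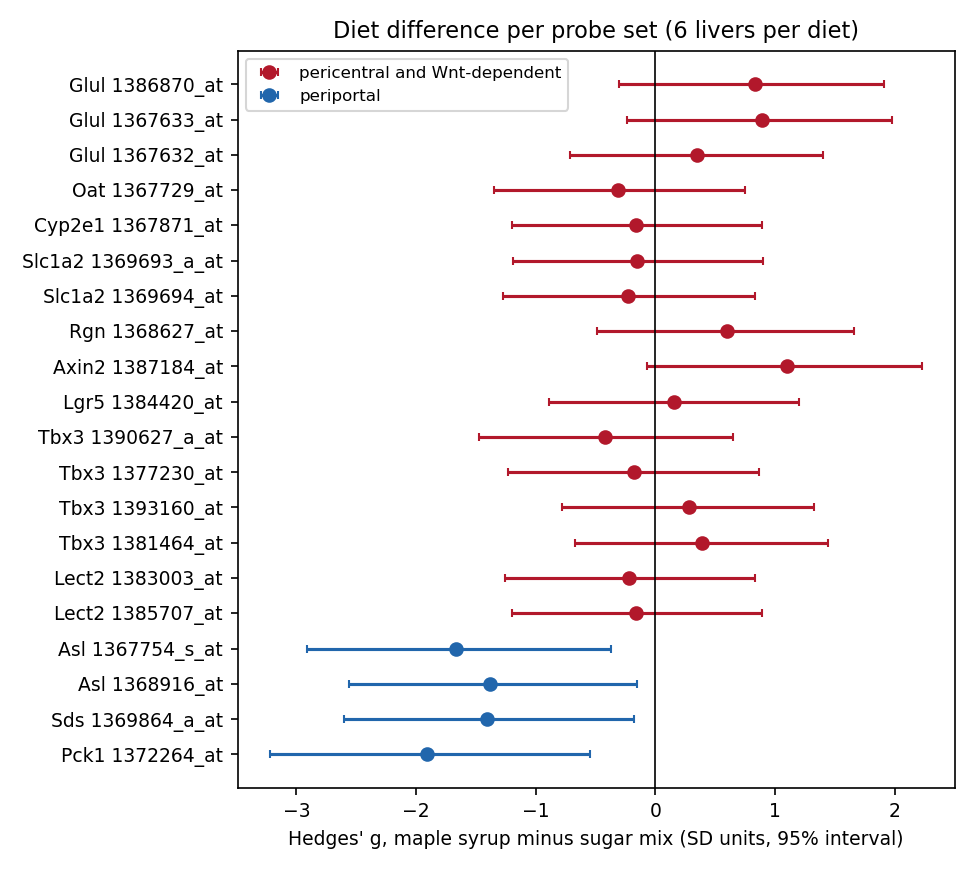
Hedges' g of each probe set (dots, in SD units, maple syrup minus sugar mix) with its 95% interval (bars), for 16 probe sets of 9 pericentral and Wnt-dependent genes (red) and 4 of the periportal genes Asl, Sds and Pck1 (blue), 6 livers per diet. All red intervals cross 0 and the 4 blue ones lie below it. The blue ones stand for 3 genes, chosen with earlier results of these data known.

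Glul encodes glutamine synthetase, which joins ammonia to glutamate in the hepatocytes that border the central vein. Its brightest probe set (1386870_at, level 11.74) ranged from -0.48 through a median of 0.03 to 2.08 SD in maple syrup livers, and from -1.62 through -0.49 to 0.78 SD in sugar mix livers. The diets overlapped: maple syrup replicates 4 and 3 were high and sugar mix replicate 2 was low, while the other livers lay between. Comparing every maple syrup animal with every sugar mix animal, 36 comparisons in all, the maple syrup animal was higher in 26, with g = 0.83 (95% interval -0.30 to 1.91) and an adjusted p of 1 in limma. The other Glul probe sets gave g = 0.89 (1367633_at) and 0.35 (1367632_at). These sizes were not stable: centring each array on its median gave 0.34 for 1386870_at and 0.30 for 1367633_at, and 1367632_at gave 0.07 without maple syrup replicate 4 and 0.73 without maple syrup replicate 6. Over the 12 livers the brightest probe set correlated with them at r = 0.96 and 0.83, so the 3 probe sets ordered the animals much alike.

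Axin2, a scaffold of the complex that degrades beta-catenin and itself a Wnt target, had the largest g of the 16 member probe sets. Its probe set (1387184_at, level 7.494) ranged from 0.04 through 0.32 to 1.25 SD in maple syrup livers, and from -2.35 through -0.10 to 0.67 SD in sugar mix livers. Sugar mix replicates 2 (-2.35 SD) and 6 (-1.46 SD) were low, and the other 4 sugar mix livers lay within or close to the maple syrup range. The maple syrup animal was higher in 31 of the 36 comparisons, with g = 1.10 (95% interval -0.07 to 2.23) and an exact permutation p of 0.0584 before adjustment over the 924 arrangements of the animals. After adjustment over all probe sets the limma p was 1. Leaving out each animal in turn gave a g between 0.92 and 1.44, but g was only 0.39 after quantile normalization and 0.25 after centring each array on its median.

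Promoter windows of Glul and Axin2 are shown with those of Rgn, the member that varied most closely with Glul, and Lect2, the other hepatocyte gene with a match near its only listed start. They run from 250 bases before to 50 bases after a transcript start, 5′ to 3′ on the gene's strand, from RefSeq on build GRCr8. The letters CTTTGAT, a core that TCF/LEF factors recognise when they act with beta-catenin, or their reverse complement ATCAAAG are in capitals.
Glul, chr13:68519250-68519549, plus strand: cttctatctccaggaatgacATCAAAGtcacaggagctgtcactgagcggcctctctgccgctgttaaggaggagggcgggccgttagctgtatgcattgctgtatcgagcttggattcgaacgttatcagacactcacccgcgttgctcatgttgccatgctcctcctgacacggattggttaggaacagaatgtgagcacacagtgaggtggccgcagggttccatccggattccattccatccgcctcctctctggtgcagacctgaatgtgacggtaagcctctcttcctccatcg
Axin2, chr10:94398535-94398834, plus strand: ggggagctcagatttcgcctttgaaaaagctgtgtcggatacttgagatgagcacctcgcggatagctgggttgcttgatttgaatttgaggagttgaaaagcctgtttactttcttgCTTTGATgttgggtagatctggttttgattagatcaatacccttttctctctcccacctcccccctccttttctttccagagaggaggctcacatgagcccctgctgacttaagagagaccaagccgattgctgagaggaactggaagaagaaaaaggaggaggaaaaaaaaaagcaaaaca
Lect2, chr17:8049784-8050083, plus strand: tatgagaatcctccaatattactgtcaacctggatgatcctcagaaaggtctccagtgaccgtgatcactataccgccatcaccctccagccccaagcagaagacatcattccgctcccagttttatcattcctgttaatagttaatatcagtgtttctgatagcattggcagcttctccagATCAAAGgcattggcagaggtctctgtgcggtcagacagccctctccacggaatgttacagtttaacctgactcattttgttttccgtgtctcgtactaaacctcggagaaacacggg
Rgn, chrX:4187908-4188207, minus strand: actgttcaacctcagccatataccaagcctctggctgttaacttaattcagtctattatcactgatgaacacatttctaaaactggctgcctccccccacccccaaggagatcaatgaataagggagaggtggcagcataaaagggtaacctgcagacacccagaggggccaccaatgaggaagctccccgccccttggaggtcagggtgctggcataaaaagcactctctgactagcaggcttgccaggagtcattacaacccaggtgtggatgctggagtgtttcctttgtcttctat
The match began 132 bases before the start in Axin2, 230 bases before it in Glul and 68 bases before it in Lect2. Of 10 windows that RefSeq's table holds for 8 of the 10 genes, 4 contained these letters on either strand, 1 each in Glul, Axin2, Lect2 and Slc1a2. Among all 33469 windows of 300 bases the share was 3.63%. The other start of Glul (chr13:68575816-68576115) and Rgn had no match, and neither had the windows of Asl and Pck1. A match is a description of letters and does not show that a factor binds there.

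The remaining Wnt-dependent genes overlapped widely between the diets. Lgr5, a receptor for R-spondins, (1384420_at, level 6.512) ranged from -1.17 through 0.02 to 1.33 SD in maple syrup livers, and from -1.76 through -0.02 to 1.33 SD in sugar mix livers. The ranges nearly coincided, with g = 0.16 (95% interval -0.89 to 1.20). Tbx3, a T-box transcription factor, had 4 probe sets with g of -0.42, -0.18, 0.28 and 0.39, in order of falling level. The brighter 3 correlated with each other over the animals (r = 0.50 to 0.69), while 1381464_at did not follow the brightest (r = -0.11), so the sign for Tbx3 depends on the probe set. Lect2, a secreted chemotactic protein of hepatocytes that depends on beta-catenin in mouse liver, ranged from -1.97 through -0.34 to 1.96 SD in maple syrup livers, and from -0.42 through -0.07 to 0.80 SD in sugar mix livers (1383003_at, level 12.58). Maple syrup replicates 3 (highest) and 5 (lowest) span the whole range, and the sugar mix livers sit inside it. Its g was -0.22, and -0.16 from its other probe set (1385707_at), with which it correlated at r = 0.79.

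Of the pericentral enzymes and carriers, Rgn encodes regucalcin, a gluconolactonase of vitamin C synthesis in rodents. It ranged from -1.16 through 0.54 to 1.28 SD in maple syrup livers, and from -1.46 through -0.54 to 0.99 SD in sugar mix livers (1368627_at, level 12.38). Maple syrup replicates 2, 3 and 4 were the highest of the 12 livers, but replicate 1 of that diet was the second lowest, and g was 0.60 (95% interval -0.49 to 1.66). It was 0.39 without sugar mix replicate 1, 0.96 without maple syrup replicate 1 and 0.33 after median centring. Cyp2e1, a cytochrome P450 that oxidises ethanol and small solvents, ranged from -1.83 through 0.28 to 0.90 SD in maple syrup livers, and from -1.26 through 0.29 to 1.39 SD in sugar mix livers (1367871_at, level 14.62). The medians differed by less than the spread within either diet, with g = -0.16 (95% interval -1.20 to 0.89). Its SD over the 12 livers was 1e-06 in the deposited score, the smallest of the member probe sets.

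Oat, ornithine aminotransferase, which passes nitrogen from ornithine toward glutamate, had the widest deposited SD of the members (0.0026). It ranged from -1.05 through -0.48 to 1.22 SD in maple syrup livers, and from -1.02 through 0.06 to 1.98 SD in sugar mix livers (1367729_at, level 10.28). Sugar mix replicate 3 was the highest liver, and g was -0.31 (95% interval -1.35 to 0.75). Slc1a2 encodes a glutamate transporter that supplies pericentral hepatocytes with substrate for glutamine. Its probe sets gave g = -0.15 (1369693_a_at, level 7.457) and -0.23 (1369694_at, level 6.803), but they did not order the animals alike (r = -0.18 with each other). Both were dim beside array medians of 7.36619 to 7.36632, and how much of their signal is background was not tested. Maple syrup replicate 3, for example, was the lowest liver at -2.07 SD on the brighter probe set and the highest maple syrup liver at 1.07 SD on the other. Values of Slc1a2 below are from the brighter probe set.

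**Figure D2:**
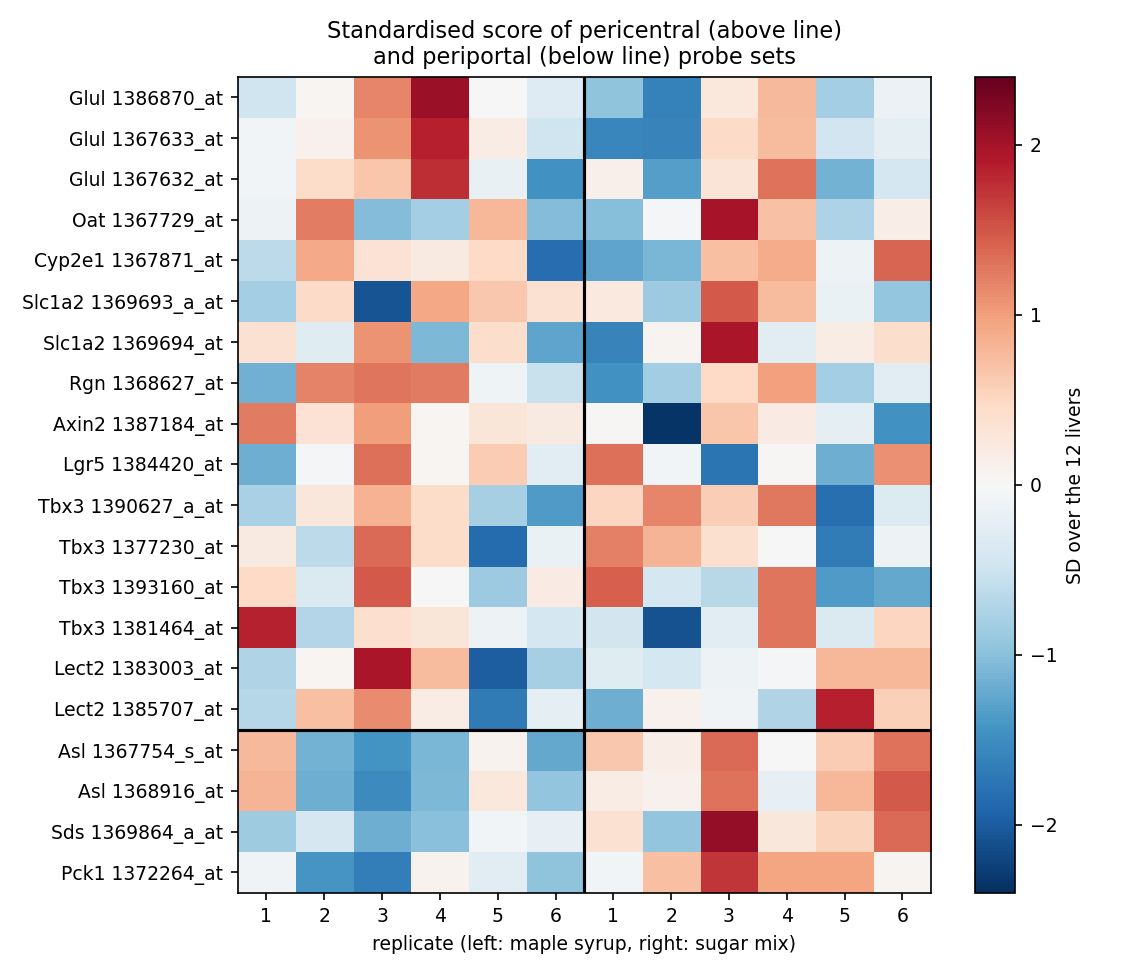
Standardised score of each probe set (rows) in each liver (columns: maple syrup replicates 1 to 6 on the left, sugar mix replicates 1 to 6 on the right), in SD over the 12 livers. The 16 probe sets above the line belong to the pericentral and Wnt-dependent genes, the 4 below it to Asl, Sds and Pck1. The 3 Glul rows are high in maple syrup replicate 4, at 2.08, 1.87 and 1.77 SD, and low in sugar mix replicate 2.

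Glul and Rgn varied together over the 12 livers, the only pair of the 63 examined that passed. These were the 36 pairs among the 9 measured genes and the 27 pairs of a member with Asl, Sds or Pck1, with 1 probe set a gene, the brightest. For Glul and Rgn, Pearson's r was 0.84 (permutation p = 0.00022, adjusted p = 0.0139 over the 63 pairs) and Spearman's rho was 0.94 (permutation p = 2e-05, adjusted p = 0.00126). Both genes were high in maple syrup replicates 3 and 4 and sugar mix replicate 4, and low in sugar mix replicates 1, 2 and 5. Maple syrup replicate 2 was high in Rgn (1.19 SD) but near the mean in Glul (0.05 SD). Without the livers farthest from the median of Glul (maple syrup replicate 4 and sugar mix replicate 2) r was 0.89. Within the diets it was 0.77 among the 6 maple syrup livers and 0.89 among the 6 sugar mix livers. The adjusted permutation p was 0.0567 without maple syrup replicate 3 (r = 0.81), 0.0699 without maple syrup replicate 4 (r = 0.84) and 0.0995 for residuals from the diet means (r = 0.82), so the call was lost in these cases while r moved little. The other Glul probe sets correlated with Rgn at r = 0.83 (1367633_at) and 0.71 (1367632_at).

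**Figure D3:**
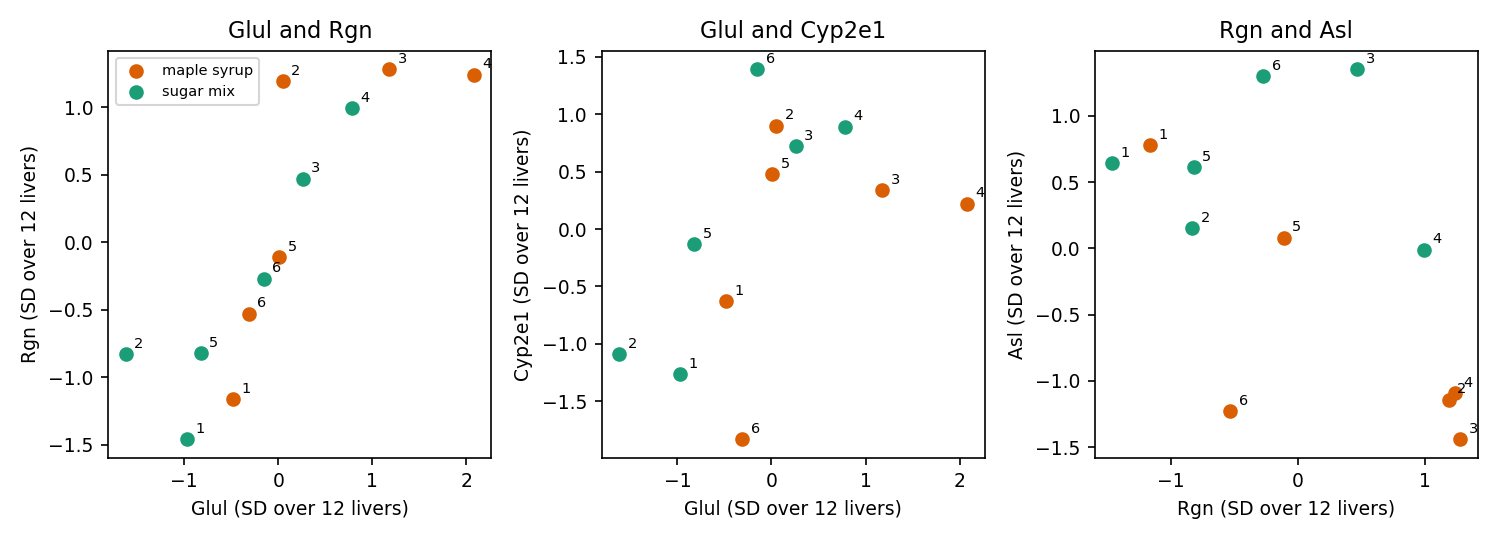
Standardised values (SD over the 12 livers) of Glul against Rgn, Glul against Cyp2e1 and Rgn against Asl, each dot a liver numbered by replicate, maple syrup in orange and sugar mix in green. Glul and Rgn (r = 0.84) rise together in both diets, with maple syrup replicate 2 high in Rgn only, and Cyp2e1 (r = 0.50 with Glul) and Asl (r = -0.55 with Rgn) scatter more widely.

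Cyp2e1 followed Rgn and Oat more loosely, and neither relation passed. With Rgn, r was 0.65 and rho 0.61 (permutation p = 0.0256 and 0.0411, adjusted p = 0.668 and 0.787), and r was 0.57 without the farthest livers, maple syrup replicate 6 and sugar mix replicate 1. With Oat, r was 0.60 and rho 0.68 (permutation p = 0.0388 and 0.0188, adjusted p = 0.668 and 0.591), and r was 0.55 without maple syrup replicate 2 and sugar mix replicate 3. With Glul, r was 0.50 and rho 0.57 (adjusted permutation p = 0.668 and 0.787), and r was 0.54 without the farthest livers. Oat and Glul, both of them genes of glutamate handling, showed no relation over the animals (r = 0.02, rho = 0.13, adjusted permutation p = 0.98 and 0.84). Within the diets r of Oat and Glul was -0.42 in maple syrup livers and 0.66 in sugar mix livers, a difference that was not tested.

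The direct Wnt targets Axin2, Lgr5 and Tbx3 did not vary as a group in these scores. Their probe sets were dim, with levels of 7.494, 6.512 and 7.555 beside array medians of 7.36619 to 7.36632. How much of their signal is background was not tested. Axin2 correlated with Lgr5 at r = -0.21 and with Tbx3 at r = -0.16, and Lgr5 with Tbx3 at r = 0.30 (adjusted permutation p = 0.841, 0.868 and 0.834). In the same order, rho was -0.24, -0.03 and 0.24 (adjusted permutation p = 0.824, 0.97 and 0.824), and r without the 2 farthest livers was -0.12, 0.19 and 0.46. With Glul, r was 0.47 for Axin2 (rho 0.45, adjusted permutation p = 0.668 and 0.787). The relation of Axin2 with Glul leaned on sugar mix replicate 2: without that liver alone r was 0.15, without maple syrup replicate 4 alone it was 0.61, and without both it was 0.30. Within the maple syrup livers r was -0.30, against 0.63 within the sugar mix livers. Over the 36 member pairs, 28 had r above 0 and the median r was 0.20, beside a median of 0.01 over all pairs of the 14217 genes. An r of 0.5 or more was reached by 11.1% of member pairs (4 of 36) and by 6.42% of all pairs.

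**Figure D4:**
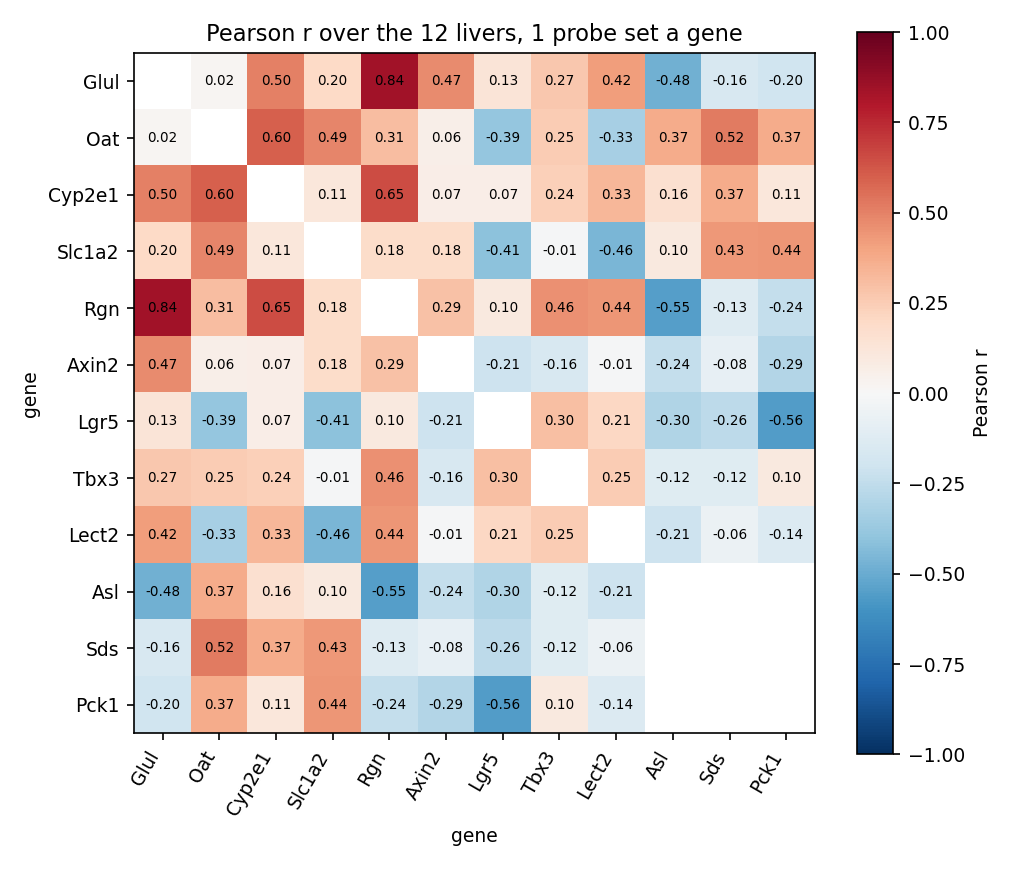
Pearson r over the 12 livers for each pair that includes at least 1 of the 9 pericentral and Wnt-dependent genes, 1 probe set a gene. Glul and Rgn stand out at 0.84, and Oat, Cyp2e1 and Slc1a2 are the members with an r above 0 with each of Asl, Sds and Pck1.

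Among all probe sets of other genes, 20823 in number, Rgn stood at place 9 by r with Glul, which puts 0.0432% of them at or above it. Cyp2e1 (4.51%), Axin2 (5.88%) and Lect2 (8.13%) stood in the upper part of that distribution, and Oat (44.6%) near its middle. The probe sets most like Glul by Pearson's r over the 12 livers belonged to Mgat4b (r = 0.88), an N-glycan branching enzyme, Ptpn14 (0.87), a tyrosine phosphatase, Leprotl1 (0.86), Sppl2a (0.86), an intramembrane protease, and Klkb1 (0.85), the plasma prekallikrein made by liver. Those most like Axin2 belonged to Slc22a23 (0.93), Fgf16 (0.87), Dop1b (0.85), Zfp91 (0.84) and Plpp3 (0.82). Those most like Cyp2e1 belonged to Hinfp (0.93), Tmem183a (0.92), Rassf1 (0.89), Thap12 (0.89) and Nr3c1 (0.88), the glucocorticoid receptor. None of these 15 probe sets belongs to a gene on the list described here, and each was picked from the top of a ranking of all other named probe sets on 12 points.

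**Figure D5:**
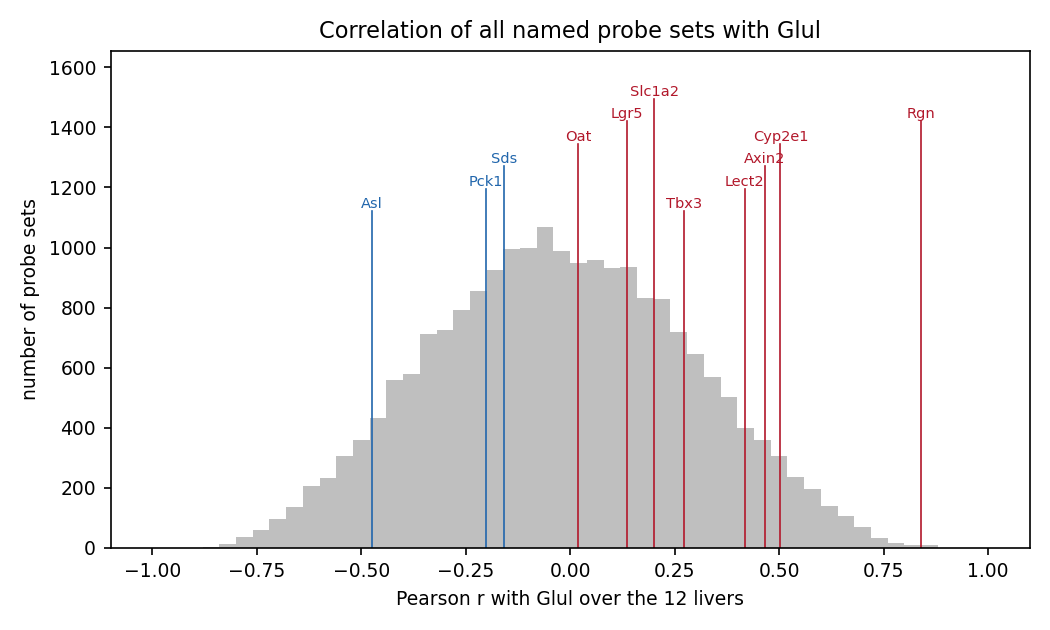
Number of probe sets (vertical axis) by Pearson r with Glul over the 12 livers (horizontal axis), all probe sets with 1 gene symbol other than those of Glul. Red lines mark pericentral and Wnt-dependent genes and blue lines periportal genes: Rgn stands at 0.84 and Asl at -0.48, and the others lie between.

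Against the periportal genes, no relation passed, and the smallest adjusted p of r among the 27 pairs was 0.668. In 17 of 27 pairs r was below 0, with a median of -0.12. Asl makes arginine in the urea cycle, as argininosuccinate lyase. Rgn and Asl had r = -0.55 and rho = -0.56 (permutation p = 0.0662 and 0.0648, adjusted p = 0.668 and 0.787). This r was -0.32 without maple syrup replicates 3 and 4, -0.74 among maple syrup livers and 0.01 among sugar mix livers. Glul and Asl had r = -0.48 and rho = -0.41 (adjusted permutation p = 0.668 and 0.787), with r = -0.52 among maple syrup livers and 0.19 among sugar mix livers. Lgr5 and Pck1 had r = -0.56 and rho = -0.39 (adjusted permutation p = 0.668 and 0.787), and r was -0.43 without sugar mix replicates 1 and 3. Within the diets it was -0.52 among maple syrup livers and -0.95 among sugar mix livers, and -0.74 for residuals from the diet means. The level of Lgr5 (6.512) lay below the median of every array. Oat, Cyp2e1 and Slc1a2 had an r above 0 with all 3 periportal genes. For Oat, r was 0.37 with Asl, 0.52 with Sds and 0.37 with Pck1 (adjusted permutation p = 0.728, 0.668 and 0.728), rho was 0.42, 0.45 and 0.38, and without the 2 farthest livers r was 0.45, 0.28 and 0.45.

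In the diet comparison itself, the intervals of all 4 periportal probe sets lay below 0 before adjustment, and those of the 16 member probe sets all included 0. The 4 also had an unadjusted limma p under 0.05, as had 2.11% of all probe sets in that direction. They stand for 3 genes, and the 2 Asl probe sets ordered the animals alike (r = 0.98). These genes too were chosen with earlier results of these data known. Pck1, cytosolic phosphoenolpyruvate carboxykinase, ranged from -1.66 through -0.62 to 0.08 SD in maple syrup livers, and from -0.07 through 0.83 to 1.71 SD in sugar mix livers. Sds, serine dehydratase, ranged from -1.17 through -0.63 to -0.06 SD in maple syrup livers, and from -0.94 through 0.45 to 2.11 SD in sugar mix livers. The diets overlapped for both genes, with g = -1.91 for Pck1 and -1.41 for Sds, and the limma p adjusted over all probe sets was 1 for each. Asl had g = -1.67 and -1.38 from its 2 probe sets, the brighter of which (1367754_s_at) may also take up related transcripts. Whether the diet difference of the periportal genes differs from that of the pericentral genes was not tested. Median centring of the arrays gave g = 0.13 for Pck1, -0.35 and -0.56 for the Asl probe sets and -1.41 for Sds, while the median of all probe sets became 0.13. With 1 animal left out, g ran from -2.18 to -1.73 for Pck1 and from -2.25 to -1.23 for Sds. For Asl it ran from -2.58 to -1.49 on the brighter probe set and from -2.02 to -1.20 on the other. The extremes of -2.58 and -2.25 came without maple syrup replicate 1 and without sugar mix replicate 2.

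Other genes of both zones gave no call. Of 18 further pericentral genes measured, 10 had a g above 0 and 8 below, with a median of 0.09, and 0 passed in either direction, beside a median g of -0.04 over all 14217 genes. Lhpp, a phosphohistidine phosphatase, had g = -1.32 (95% interval -2.49 to -0.11), Ephx1, microsomal epoxide hydrolase, -1.06, Cyp2c11, the male-specific rat cytochrome P450, 0.68, and Slc22a3, an organic cation transporter, 0.71. The level of Slc22a3 (6.658) lay below the median of every array. Of 18 further periportal genes, 5 had a g above 0 and 13 below, with a median of -0.39, and 0 passed. Fbp1, fructose-bisphosphatase, had g = -1.38, Sdsl -0.97, Gls2, the liver glutaminase that feeds ammonia to the urea cycle, -0.92, and Cps1, carbamoyl-phosphate synthase, -0.90. The cell marker lists gave no call either. Of all 14217 genes, 7521 had a g below 0 and 6696 above. Below 0 were 7 of 9 Kupffer cell and macrophage markers (median -0.68), 8 of 11 stellate cell markers (median -0.27) and 4 of 6 cholangiocyte markers (median -0.06). Above 0 were 8 of 10 endothelial markers (median 0.23), 4 of 5 erythroid markers (median 0.29) and 5 of 9 hepatocyte markers (median 0.12). The part of other cells in the values of the zonal genes was not tested. The zonal genes named here are those with the smallest unadjusted limma p of each list.

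The Wnt pathway upstream of these targets was measured in part. Of 9 Wnt and R-spondin ligand genes, 3 had a g above 0 and 6 below (median -0.12, 0 passed). Their levels ran from 6.11 to 7.81, beside array medians of 7.36619 to 7.36632. Rspo3 (7.363) and Wnt7a (6.828) lay below the median of every array, and how much of the ligand signal is background was not tested. Rspo3, an R-spondin that endothelial cells near the central vein release in mouse liver, had g = -0.90. The ligand genes Wnt7a and Wnt11 had g = -0.62 and -0.57, and Wnt2, an endothelial Wnt of the liver, had g = 0.28. Of 21 receptors and transducers, 10 had a g above 0 and 11 below (median -0.04, 0 passed). Fzd1, a Frizzled receptor, had g = 1.14 (95% interval -0.04 to 2.27). Lrp5, a co-receptor with 2 probe sets, had g = 1.10 by the brighter one, with an unadjusted limma p of 0.0614 and an adjusted limma p of 1. There it was higher with maple syrup in 35 of the 36 comparisons, with an exact permutation p of 0.00433 before adjustment. The share of all probe sets that reach this was not counted. Its other probe set is not described here, and these genes were picked for the smallest limma p of their list. Fzd8, another Frizzled receptor, had g = 0.74, and Tcf7l1, a TCF factor, had g = -0.67. Of 17 inhibitors and members of the destruction complex, 9 had a g above 0 and 8 below (median 0.01, 0 passed). Axin1, the scaffold related to Axin2, had g = 1.21 (95% interval 0.02 to 2.36). Before adjustment its limma p was 0.0671 and its exact permutation p 0.0487. Gsk3a, a kinase that marks beta-catenin for breakdown, had g = -0.91. Its relative Gsk3b had g = 0.43, and Sfrp1, a secreted Wnt antagonist, had g = -0.72. Of 10 other beta-catenin targets, 3 had a g above 0 and 7 below (median -0.28, 0 passed), among them Cd44 with g = -1.17, Lgr6 with -0.94, Myc with 0.74 and Jun with -0.72. The levels of Sfrp1 (6.941) and Lgr6 (6.924) also lay below the median of every array.

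Markers of other liver cells were set beside Glul and Rgn as mean standardised scores of each list, in 14 relations. Kupffer cell and macrophage markers (9 of 12 measured) ranged from -1.34 through -0.06 to 0.68 in maple syrup livers, and from -0.28 through 0.02 to 0.76 in sugar mix livers. Their score had r = -0.63 with Glul and -0.60 with Rgn (permutation p = 0.0267 and 0.0400, adjusted p = 0.28 for each), and rho was -0.52 and -0.58 (adjusted permutation p = 0.62 for each). Without the 2 livers farthest from the median score r was -0.10 with Glul and -0.31 with Rgn, so the relation with Glul rests on those livers. Within maple syrup livers r was -0.87 with Glul and -0.93 with Rgn, against -0.04 and 0.24 within sugar mix livers. The part of these cells in the relation of Glul and Rgn was not tested. For markers of hepatocytes, endothelial cells, stellate cells, cholangiocytes and erythroid cells and for the array median, r with Glul and Rgn lay between -0.36 and 0.45, with adjusted permutation p from 0.629 upward.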

How the data were processed

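Values are the authors' deposited score for each of 31099 probe sets on 12 arrays, 6 per diet. How this score was summarized and normalized is not stated in the labels or the file, and biotin-labelled cRNA was hybridised, per the labels' protocols. Its log base and compression are therefore unknown, and its direction was taken as deposited. Gene names came from the array's annotation, checked against RefSeq: 20832 had 1 symbol (6 of them control probe sets, left out), 436 had several and 9831 are unnamed here. Where 1 probe set a gene was needed, the one with the highest mean was used.

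Diets were compared over all 20826 probe sets with limma 3.58.1 in R 4.3.3 (lmFit, eBayes with trend, two-sided, Benjamini-Hochberg threshold 0.05), without a filter. Intervals of g come from the noncentral t distribution. Exact permutation tests used all 924 arrangements and cannot give a p under 0.00216. Correlations used 100000 permutations, two-sided, adjusted within each family for r and rho apart. Scripts ran in Python 3.11.15 with scipy 1.17.1 and were tested on simulated data. The labels give no batch. No pairing by replicate number is stated, and deviations of same-numbered livers correlated at -0.04 to 0.12. The members, gene lists and tests were chosen with earlier results of these data known. Besides all member probe sets and Asl, Sds and Pck1, the rule for named genes took the 5 probe sets most like Glul, Axin2 and Cyp2e1 and up to 4 genes with the smallest p of each list, of which those of the cell marker lists are given as summaries. Alternatives were other normalizations, filters, variance models, array weights, a replicate block, other probe set rules and each animal left out.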

Additional observations from a re-analysis of the deposited data

How the results depend on the processing

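The count of probe sets called between the diets was 0 in limma under every alternative run, the replicate block among them. With the exact permutation test it was 0 too, but that test cannot give a p under 0.00216. Over 20826 probe sets it could make a call only if many came near that minimum, so this 0 adds little. The number with an unadjusted limma p under 0.05 was 873, 90 under median centring and 651 to 1148 with 1 animal left out. No member was called under any alternative, the replicate block included. The labels state no pairing of same-numbered livers, and 0 of 12 livers correlated best with the liver of its own number. What else such livers may share is not stated. The median g of the member probe sets was 0.01, -0.24 under quantile normalization (10 probe sets, since the others became constant) and -0.01 to 0.19 with 1 animal left out. Under median centring g changed sign for Cyp2e1 (0.13), Slc1a2 (0.09 and 0.13), Tbx3 (0.13 for 1390627_a_at and 1377230_at), Lect2 (0.13 for both probe sets) and Pck1 (0.13), while the median of all probe sets became 0.13; g shrank without changing sign for Axin2 (0.25), Rgn (0.33), the brighter Glul probe sets (0.34 and 0.30) and Asl (-0.35 and -0.56). Under quantile normalization g changed sign for Lgr5 (-0.53) and Tbx3 1393160_at (-0.01). It shrank for Axin2 (0.39), Glul 1367633_at (0.29), Tbx3 1390627_a_at (-0.17) and Tbx3 1381464_at (0.14). It grew in size for Tbx3 1377230_at (-0.80) and both Slc1a2 probe sets (-0.50 and -0.33), and barely moved for Oat (-0.32) and Sds (-1.41). With 1 animal left out g crossed 0 for Oat (-0.59 to 0.02), Cyp2e1 (-0.41 to 0.18), Slc1a2 (-0.33 to 0.25 and -0.62 to 0.11), Lgr5 (-0.15 to 0.44), Tbx3 1377230_at (-0.58 to 0.14) and Lect2 (-0.77 to 0.13 and -0.40 to 0.18), and for no probe set of Glul, Rgn, Axin2, Asl, Sds or Pck1 and no other of Tbx3.

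Of the member pairs 1 passed, 0 as residuals from the diet means, 2 with the mean of standardised probe sets (Glul with Rgn, and Oat with Slc1a2 at r = 0.83), and 0 to 1 with 1 animal left out. With the brighter Slc1a2 probe set alone, r with Oat was 0.49 (adjusted permutation p = 0.668), and 0.22 without the 2 farthest livers. The 2 Slc1a2 probe sets averaged for the 0.83 were dim (levels 7.457 and 6.803) and did not order the animals alike (r = -0.18). Median centring gave 28 member pairs and 16 periportal pairs, where the subtracted array median varies more than 9 of the 16 member probe sets do: r became 0.83 for Glul and Asl, 0.80 for Rgn and Asl and 1.00 for Lgr5 and Pck1. Quantile normalization left 6 of the 12 genes variable, so correlations could not be recomputed for most pairs and are not given. The number of arrays limits what could be detected.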
